A study of Mus musculus with 13 samples.

Results

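Cathepsins are the proteases that degrade proteins inside lysosomes, the acidic compartments in which a cell digests what it takes up or discards. The expression of 10 mouse cathepsin genes, Ctsa, Ctsb, Ctsc, Ctsd, Ctsf, Ctsh, Ctsk, Ctsl, Ctss and Ctsz, was compared between induced pluripotent stem (iPS) clones, embryonic stem (ES) cells and mouse embryonic fibroblasts (MEF). The genes were chosen by symbol. Each of the 10 is represented by the only row of the array table whose annotation gives its symbol alone, and 14807 genes in all have such a row. Tests ran over 16661 rows of the table; the 6577 rows numbered before the first annotated one were taken to be array controls and left out, which no source used here states.

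A cathepsin is made as an inactive precursor, carried to the lysosome mostly by mannose-6-phosphate receptors, and activated there by cleavage at low pH. Most members are cysteine proteases, whereas Ctsd encodes an aspartic protease and Ctsa a serine carboxypeptidase. Many are found in nearly every tissue, and a few are known for cells of the macrophage lineage: Ctss for antigen-presenting cells, Ctsk for the bone-resorbing osteoclast and Ctsc for leukocytes. Accordingly, Ctsa, Ctsb, Ctsd, Ctsf, Ctsh, Ctsl and Ctsz are called widely expressed here, and Ctsc, Ctsk and Ctss macrophage-type. This assignment was made with earlier results of these data known. Another assignment, with Ctsh and Ctsz among the macrophage-type genes, was used as an alternative.

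RNA from 13 samples was hybridised to Affymetrix Mouse Exon 1.0 ST arrays: 4 iPS clones (1, 2, 5 and 6), MEF and MPSVII ES with 2 arrays each, and B6 Blu ES with 1. The titles and the design text place all lines except B6 Blu ES in a model of mucopolysaccharidosis type VII (MPSVII), in which lysosomes lack the enzyme beta-glucuronidase, but the source names and growth texts for clones and MEF give wildtype B6 fibroblasts. The strain is C57Bl/6 for all lines but B6 Blu ES, for which it is C57BL/6NTac. Each clone grew from 1 colony picked after transduction of fibroblasts with a lentivirus named OSK and was expanded on MEF feeder layers, so a clone sample may hold feeder RNA.

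Values are log2 signals, on which a difference of 1 is a 2-fold change, and errors after ± are standard errors from limma unless stated. The number of arrays limits the precision. Nothing in the labels tells whether same-line arrays stem from separate cultures, so the p-values measure only the spread between these arrays. Same-line arrays correlated over all rows with r between 0.955 and 0.982. The interquartile range of the signals ran from 1.70 on clone 2 replicate 2 to 2.83 on MEF replicate 1. Gusb, which encodes beta-glucuronidase, lay between 3.47 and 4.25 on the 8 clone arrays, at 3.76 and 3.72 on MPSVII ES, at 5.07 and 3.98 on MEF and at 4.50 on B6 Blu ES. It was lower in the clones than in MEF, by -0.79 ± 0.24 (adjusted p = 0.0267). Its difference of -0.79 ± 0.31 between MPSVII ES and MEF (adjusted p = 0.0876) and that of -0.76 ± 0.38 between MPSVII ES and B6 Blu ES (adjusted p = 0.571) did not pass the test.

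The lines were checked against marker genes. Over all rows, 27.0% were called lower and 7.78% higher in the clones than in MEF at an adjusted p under 0.05, the shares against which the counts of list members below are set. All 16 measured fibroblast markers and 11 of 12 pluripotent cell markers differed between clones and MEF in the direction of the labels, with Klf2 the exception at 0.32 (adjusted p = 0.462), which was called higher after quantile (0.84) and loess normalization (0.82). MEF also carried macrophage markers. All 18 measured members of that list were lower in the clones, with a median difference of -4.54. Adgre1, the gene of a macrophage surface antigen, stood at 8.90 and 8.15 on the MEF arrays and between 3.13 and 3.57 on the clone arrays. The mean of the macrophage list was 7.98 and 8.44 on MEF, 3.58 to 3.92 on the clones, 3.83 and 3.84 on MPSVII ES and 3.65 on B6 Blu ES. Of the 7 osteoclast markers, Atp6v0d2 alone was lower in the clones. Among 7 lymphocyte markers, 0 passed limma's test (0 at an unadjusted p under 0.05, a share not counted over all rows). Among 8 granulocyte and mast cell markers, Kit alone differed, at 0.88 higher in the clones (adjusted p = 0.0049). Under at least 1 of quantile, median and loess normalization, Acp5 (osteoclast), Mpo (granulocyte) and Cd2 (lymphocyte) were also called higher in the clones. The part of macrophage RNA in the MEF values of the cathepsins below was not tested.

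All 10 cathepsins were highest in MEF and fell in the clones, the MPSVII ES cells and the B6 Blu ES cells alike. The differences between clones and MEF ran from -1.69 ± 0.27 for Ctsf to -5.04 ± 0.28 for Ctsk, with a median of -3.66, against a median of -0.09 over all rows tested. The direction of calls over all rows depended on the scaling: 77.6% of the calls were lower in the clones as deposited, but 48.3% after quantile normalization, 51% after median centring and 57.5% after loess normalization. The cathepsins stayed lower under each of these, by -1.09 to -4.64, by -1.42 to -4.77 and by -1.39 to -4.84. No clone array overlapped a MEF array in any of the 10 genes, which was so for 26.1% of all rows in that direction. A lower signal in such bulk samples can come from fewer cells of a type or from less RNA per cell, and these cannot be told apart.

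**Figure D1:**
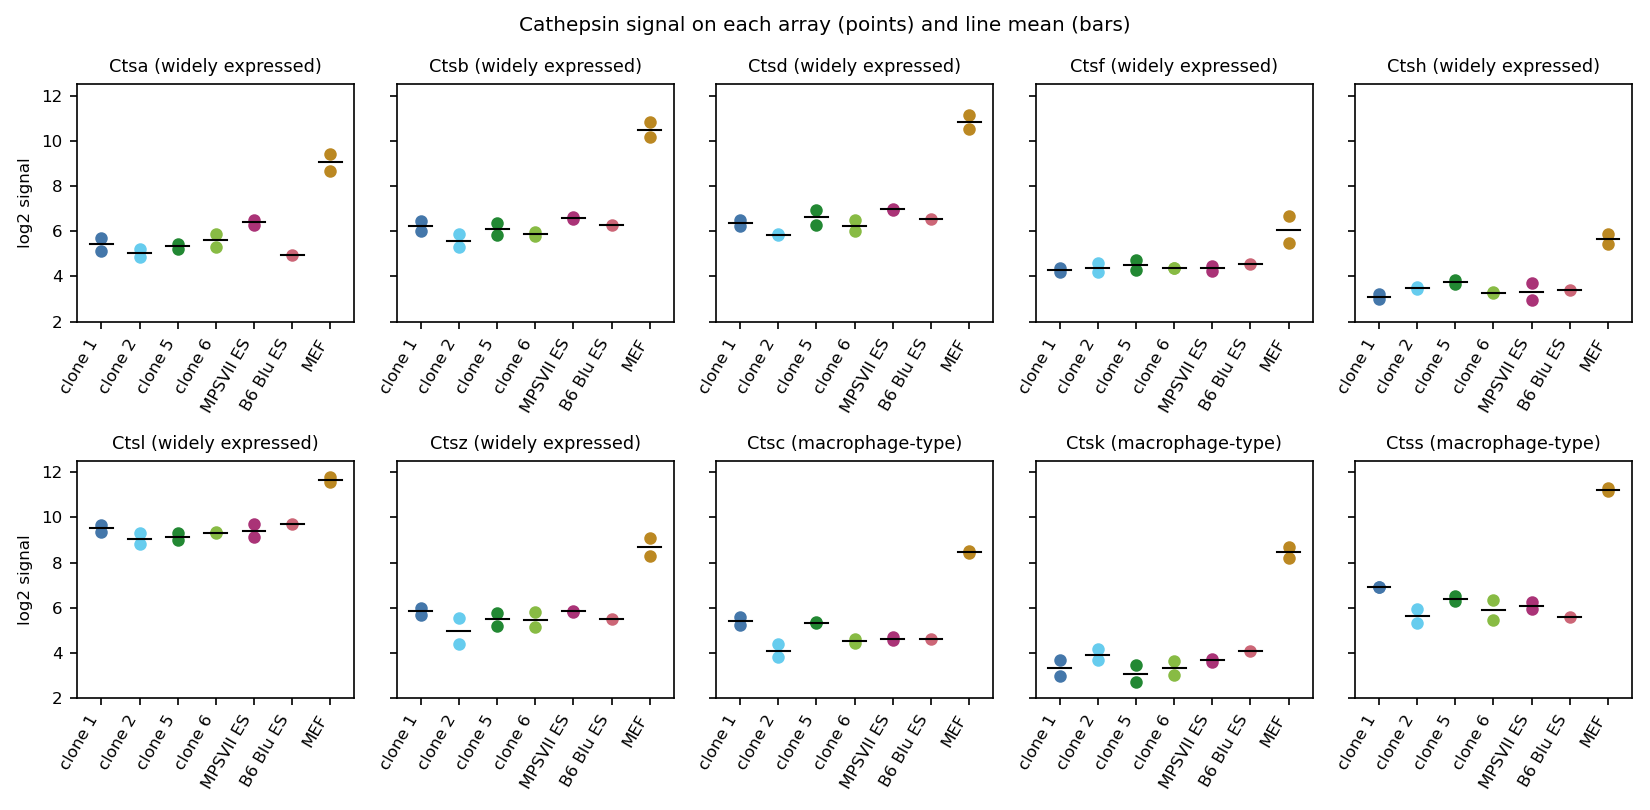
Log2 signal of the 10 cathepsins (vertical axis) in the 7 lines (horizontal axis), with 1 point per array and a bar at the line mean. In each panel both MEF points lie above the points of every other line; B6 Blu ES has 1 array.

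Among the widely expressed genes, Ctsd and Ctsb differed most. Ctsd, the aspartic protease, stood at 11.14 and 10.54 on the MEF arrays, at 6.96 and 6.98 on MPSVII ES and at 6.56 on B6 Blu ES. On the 8 clone arrays it ran from 5.83 to 6.95, with a median of 6.26. The MEF values were the highest by a wide gap, and the MPSVII ES values lay just above the uppermost clone array. The clones were lower than MEF by -4.57 ± 0.22, a 23.7-fold difference (adjusted p = 1.05e-07).

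Ctsb, a cysteine protease that cuts both within proteins and at their carboxyl ends, gave 10.82 and 10.19 on MEF, 6.53 and 6.62 on MPSVII ES and 6.26 on B6 Blu ES. The clone arrays held 5.31 to 6.48, with a median of 5.91. Its pattern was close to that of Ctsd: the clones were lower than MEF by -4.55 ± 0.23 (23.4-fold, adjusted p = 1.23e-07).

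Ctsa encodes protective protein, which besides its own protease activity stabilises beta-galactosidase (Glb1) and neuraminidase (Neu1) in the lysosome. It gave 9.44 and 8.65 on MEF, 6.30 and 6.50 on MPSVII ES and 4.95 on B6 Blu ES. The clone arrays held 4.85 to 5.89, with a median of 5.28, so that both MPSVII ES arrays lay above all clone arrays, and B6 Blu ES below all of them but 1. Clones and MEF differed by -3.70 ± 0.24 (13-fold, adjusted p = 7.88e-07). Of the partners of Ctsa, Glb1 was lower in the clones by -1.56 ± 0.27 (adjusted p = 0.000842), while Neu1 differed by -0.31 ± 0.17 (adjusted p = 0.207).

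The promoter windows of Ctsa and Ctsd are shown because they hold the 6-letter E-box CACGTG, the core of the element through which TFEB and related factors bind many lysosomal genes. Windows run from 250 bases before to 50 after the start in RefSeq on GRCm38.p6, for 8 of the 10 cathepsin genes, and the matches are in capitals. The word reads the same on both strands. The Ctsa window is the second of 2 in the table, at chr2:164833523-164833822 on the plus strand, and that of Ctsd lies at chr7:142387778-142388077 on the minus strand.
Ctsa: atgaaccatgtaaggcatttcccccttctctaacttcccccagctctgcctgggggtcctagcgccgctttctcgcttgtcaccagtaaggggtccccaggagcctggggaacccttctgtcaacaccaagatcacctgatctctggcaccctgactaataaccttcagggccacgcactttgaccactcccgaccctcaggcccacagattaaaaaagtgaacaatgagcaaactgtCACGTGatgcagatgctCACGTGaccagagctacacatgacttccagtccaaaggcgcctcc
Ctsd: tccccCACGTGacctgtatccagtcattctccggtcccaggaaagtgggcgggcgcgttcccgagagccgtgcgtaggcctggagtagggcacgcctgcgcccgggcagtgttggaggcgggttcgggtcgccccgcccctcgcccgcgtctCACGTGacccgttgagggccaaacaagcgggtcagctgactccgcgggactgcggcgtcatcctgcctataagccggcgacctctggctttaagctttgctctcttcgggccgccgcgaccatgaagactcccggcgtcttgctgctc
In Ctsa the word starts at bases -12 and 6 from the start, and in Ctsd at -245 and -98. Ctsf held it at -79 and Ctsl at -236, which made 4 of 8 genes, all of the widely expressed class, against 8.09% of all 27025 genes and 7.15% of all windows. The longer TCACGTG, searched on both strands and overlapping CACGTG wherever it occurs, was in Ctsa and Ctsd and in 4.29% of all genes. The window of Ctsz held neither. These matches describe the letters only, and no binding was measured.

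Ctsz, a carboxypeptidase, gave 9.09 and 8.28 on MEF, 5.83 and 5.85 on MPSVII ES and 5.50 on B6 Blu ES. The clone arrays ran from 4.41, on clone 2 replicate 2, to 5.97, with a median of 5.63. The spread within the clones was the widest of the widely expressed genes, yet the gap to MEF was larger, at -3.24 ± 0.31 (9.43-fold, adjusted p = 1.33e-05).

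Ctsl, a strong endopeptidase, gave 11.79 and 11.57 on MEF, 9.14 and 9.70 on MPSVII ES, 9.69 on B6 Blu ES and 8.83 to 9.66 on the clones, with a median of 9.32. The pluripotent lines lay within 1 log2 unit of each other, and the clones were lower than MEF by -2.42 ± 0.20 (5.33-fold, adjusted p = 3.32e-06). Ctsh, an aminopeptidase, gave 5.86 and 5.43 on MEF, 3.71 and 2.95 on MPSVII ES, 3.40 on B6 Blu ES and 2.98 to 3.83 on the clones. The clones were lower than MEF by -2.24 ± 0.20 (adjusted p = 7.53e-06). In the pluripotent lines its signal lay below the median of every array, and whether it exceeds background there was not tested, so no fold is given.

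Ctsf, a cysteine protease whose human gene is mutated in a neuronal ceroid lipofuscinosis, showed the smallest difference of the 10. It gave 6.67 and 5.48 on MEF, 4.25 and 4.47 on MPSVII ES, 4.53 on B6 Blu ES and 4.18 to 4.75 on the clones. The MEF arrays were 1.20 apart, the widest gap between MEF replicates among the cathepsins. The clones were lower than MEF by -1.69 ± 0.27 (3.22-fold, adjusted p = 0.000473). B6 Blu ES was lower than MEF by -1.54 ± 0.41 (adjusted p = 0.0215), a call that was lost without MEF replicate 1, at -0.95 (adjusted p = 0.0794). Without that array the clones were lower by -1.09 (adjusted p = 0.00768) and MPSVII ES by -1.12 (adjusted p = 0.0174). After quantile normalization, the differences of clones and B6 Blu ES from MEF were -1.09 and -0.98, both still called.

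The macrophage-type genes included the largest measured differences, those of Ctsk and Ctss. Ctss, an elastolytic protease that trims the invariant chain of class II molecules in antigen-presenting cells, gave 11.32 and 11.16 on MEF, 5.93 and 6.24 on MPSVII ES and 5.60 on B6 Blu ES. The clone arrays held 5.33 to 6.93, with a median of 6.31, and all ES arrays lay inside that range. The clones were lower than MEF by -5.02 ± 0.23 (32.6-fold, adjusted p = 8.93e-08). Cd74, the gene of the invariant chain, was not called, at 0.08 ± 0.13 between clones and MEF (adjusted p = 0.7). It lay at 2.83 to 3.18 on the clones and at 2.95 and 2.87 on MEF, below the median of every array. Whether its signal exceeds background in any line was not tested.

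Ctsk, the collagen-degrading protease of osteoclasts, is also made by fibroblasts. It gave 8.71 and 8.20 on MEF, 3.74 and 3.60 on MPSVII ES, 4.11 on B6 Blu ES and 2.70 to 4.18 on the clones, with a median of 3.57. Outside MEF its signal lay below the array's median on all 11 arrays. The clones were lower than MEF by -5.04 ± 0.28 (adjusted p = 2.3e-07). Whether the signals outside MEF exceed background was not tested, so this difference is given without a fold and its place in the order of the 10 is that of the measured signals only.

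Ctsc, a dipeptidyl peptidase that activates the serine proteases of granulocytes, mast cells and cytotoxic lymphocytes, gave 8.52 and 8.43 on MEF, 4.70 and 4.58 on MPSVII ES and 4.61 on B6 Blu ES. The clone arrays ran from 3.81 to 5.58, with a median of 4.93, and those of clones 1 and 5 lay above the ES arrays while those of clone 2 lay below them. The clones were lower than MEF by -3.63 ± 0.17 (12.4-fold, adjusted p = 1.05e-07). The granule proteases it activates were not among the genes that differed: Elane differed by 0.14 (adjusted p = 0.689), Prtn3 by 0.10 (adjusted p = 0.782) and Ctsg by 0.28 (adjusted p = 0.36) between clones and MEF. Ctsg lay at 1.79 to 2.87 on the clones and at 1.86 and 1.87 on MEF, below the median of every array. Whether the signals of these proteases exceed background in any line was not tested.

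The windows of the macrophage-type genes are shown because all 3 hold GAGGAAG, a purine-rich word of the kind bound by ETS factors such as PU.1 (Spi1), and CTTCCTC is the same word on the opposite strand. That of Ctsc lies at chr7:88277835-88278134, that of Ctsk at chr3:95498960-95499259 and that of Ctss at chr3:95526536-95526835, all on the plus strand, with the matches in capitals.
Ctsc: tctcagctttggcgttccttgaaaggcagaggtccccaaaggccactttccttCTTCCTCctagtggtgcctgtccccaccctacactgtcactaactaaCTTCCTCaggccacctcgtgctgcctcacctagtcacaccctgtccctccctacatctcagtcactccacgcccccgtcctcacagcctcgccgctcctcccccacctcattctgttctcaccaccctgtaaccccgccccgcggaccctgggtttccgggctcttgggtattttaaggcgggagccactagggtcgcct
Ctsk: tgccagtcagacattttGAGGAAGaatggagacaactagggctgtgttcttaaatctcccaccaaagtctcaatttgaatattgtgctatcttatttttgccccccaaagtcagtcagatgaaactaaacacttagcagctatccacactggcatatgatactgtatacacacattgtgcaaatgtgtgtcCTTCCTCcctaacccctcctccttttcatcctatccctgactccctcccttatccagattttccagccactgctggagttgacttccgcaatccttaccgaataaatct
Ctss: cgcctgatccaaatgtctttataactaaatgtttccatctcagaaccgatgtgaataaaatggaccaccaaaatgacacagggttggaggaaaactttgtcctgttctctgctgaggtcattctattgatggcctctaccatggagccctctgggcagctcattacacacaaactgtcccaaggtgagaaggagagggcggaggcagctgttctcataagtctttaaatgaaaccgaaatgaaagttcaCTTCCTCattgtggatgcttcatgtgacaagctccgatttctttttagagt
The word starts at bases -197 and -150 in Ctsc, at -233 and -59 in Ctsk and at -1 in Ctss. It was in none of the windows of the 5 widely expressed genes in the table, and in 15.4% of all genes and 13.6% of all windows. Of the words that ETS factors bind, only this exact one was searched, and no binding was measured. The GC-rich word GGGCGG was in 5 of the 8 cathepsin genes (Ctsc, Ctsd, Ctsf, Ctss and Ctsz) and in 38.2% of all genes. TATAAA was in Ctss alone, on the opposite strand at base -233, and in 15.7% of all genes. G and C made up 67.3% of the Ctsd window but 43.7% and 44% of those of Ctsk and Ctss, against a median of 52.7% over all windows.

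**Figure D2:**
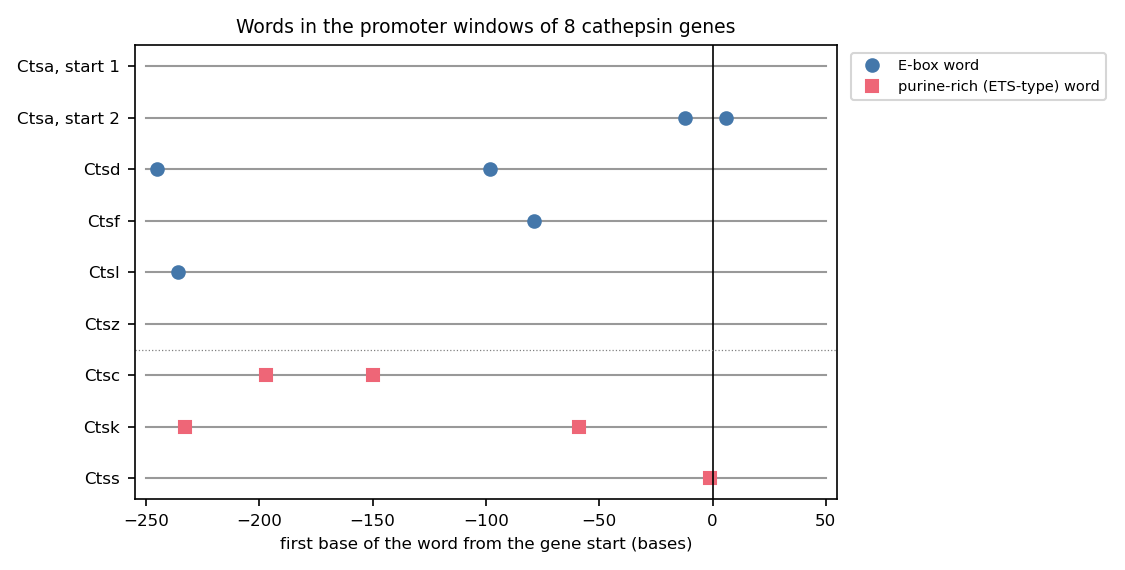
Start of each E-box word (circles) and each purine-rich word (squares), in bases from the gene start (horizontal axis), in the promoter windows of 8 cathepsin genes (rows, with 2 windows for Ctsa). The circles lie in 4 widely expressed genes and the squares in the 3 macrophage-type genes.

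The classes were set with earlier results of these data known, so their contrast is a description only. By class, the macrophage-type genes had a median difference between clones and MEF of -5.02 and the widely expressed genes one of -3.24. For MPSVII ES minus MEF the medians were -4.79 and -2.65, and for B6 Blu ES minus MEF -4.35 and -3.18. This order depended on the assignment: with Ctsh and Ctsz counted as macrophage-type, the medians for the clones were -3.63 and -3.70, and those for B6 Blu ES -3.87 and -4.10, while MPSVII ES kept its order at -3.83 and -2.65. The ranges overlapped in either case, since Ctsb and Ctsd differed more than Ctsc. Ctsk, also made by fibroblasts, counted as macrophage-type in both assignments, although its own pattern set it apart from the other members. Its nearest genes over the 13 arrays were Ndnf, Col12a1 and Hgf. On the 11 arrays without MEF, where its signal lay below the median, it had r = -0.636 with Ctsc and -0.341 with Ctss. The class means were highest on the MEF arrays, as were both marker lists of MEF. On the MEF arrays the macrophage-type genes averaged 9.52 and 9.26 and the fibroblast markers 8.44 and 7.93. On B6 Blu ES the fibroblast list reached 5.92, above its 4.54 to 5.46 on the clones and 4.66 to 4.76 on MPSVII ES, whereas the macrophage list was at 3.65. There the widely expressed class was at 5.84 and the macrophage-type class at 4.77, both within the range of the clone arrays (5.27 to 6.04 and 4.31 to 5.28).

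**Figure D3:**
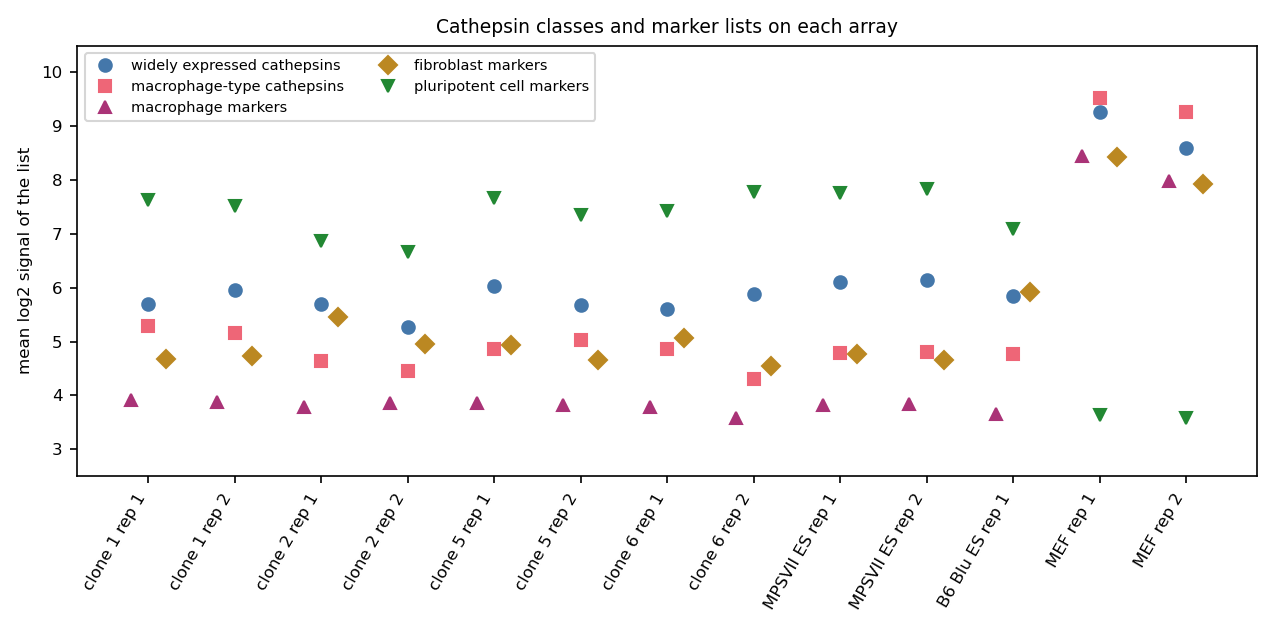
Mean log2 signal (vertical axis) of the 7 widely expressed and 3 macrophage-type cathepsins and of the macrophage, fibroblast and pluripotent cell markers on each of the 13 arrays (horizontal axis). On both MEF arrays the cathepsins, the macrophage markers and the fibroblast markers are high together. On B6 Blu ES the mean of the fibroblast markers is raised at 5.92 and that of the macrophage markers is not.

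Both ES lines were compared with the same MEF arrays as the clones, so these comparisons are not independent of each other. In MPSVII ES all 10 cathepsins were lower than in MEF, without overlap between the arrays, against 20.0% of all rows called lower, 6.70% called higher and 37.6% lower without overlap. Of all calls, 74.9% were lower as deposited and 50.9%, 58.4% and 60.7% after quantile, median and loess normalization. The differences ran from -1.72 ± 0.34 for Ctsf (adjusted p = 0.003) to -5.15 ± 0.30 for Ctss (adjusted p = 8.1e-07). In B6 Blu ES, whose spread is taken from the other lines because it has 1 array, all 10 were also lower, against 18.0% of all rows. Here 84.5% of all calls were lower as deposited and 52.2%, 70.8% and 65.4% after the same normalizations. Its largest difference was that of Ctss, at -5.64 ± 0.36 (adjusted p = 4.99e-06). In each of the 10 genes MEF stood first in the order of the 7 lines and differed from the line after it, by a step of 1.54 (Ctsf) to 4.35 (Ctsk). No later step between neighbouring lines passed the test.

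**Figure D4:**
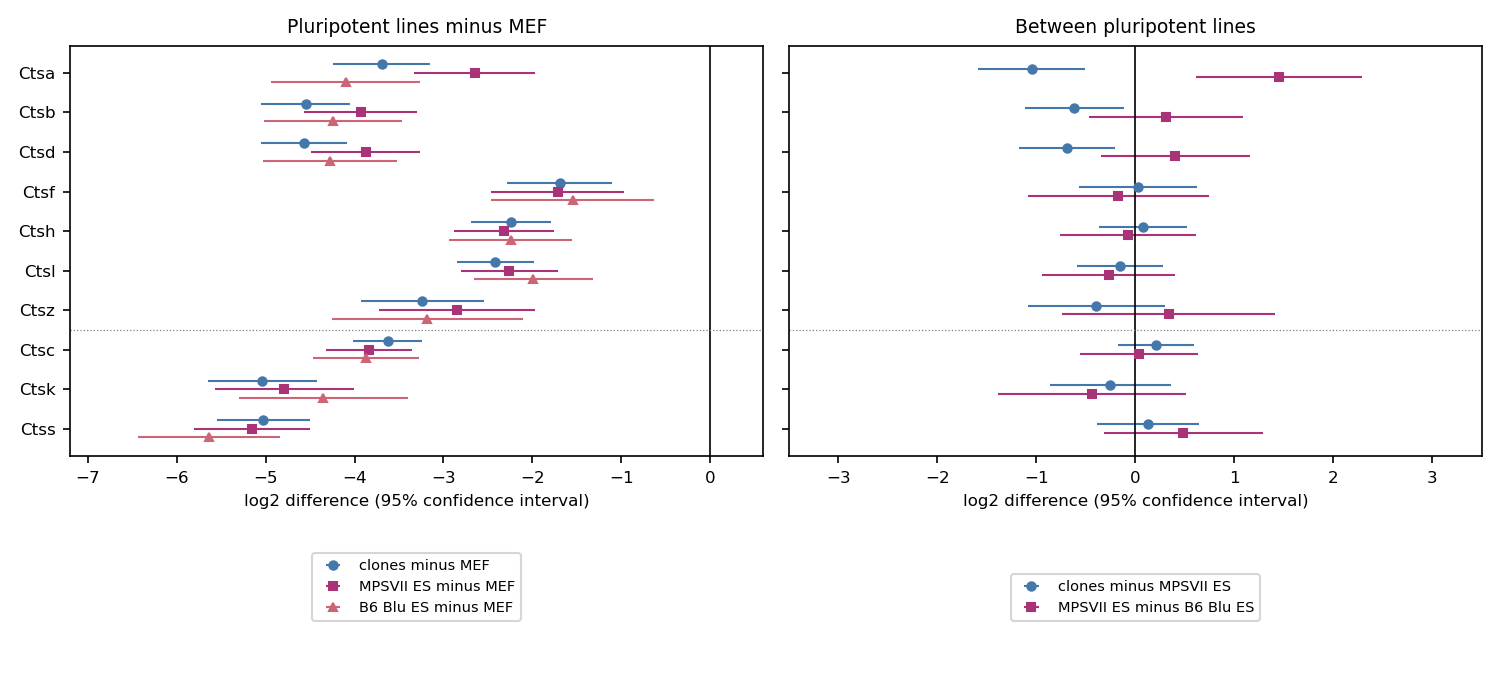
Log2 differences (horizontal axis) of the 10 cathepsins with 95% confidence intervals, for the clones, MPSVII ES and B6 Blu ES minus MEF (left) and between pluripotent lines (right); a dotted line separates the 7 widely expressed from the 3 macrophage-type genes. All intervals on the left lie below 0, while on the right the intervals of Ctsa, Ctsb and Ctsd for clones minus MPSVII ES lie below 0 without passing the adjusted test.

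The design text names the comparison of the clones with MPSVII ES as the aim. Here 0 of the 10 cathepsins passed limma's test, against 1.04% of all rows. The unadjusted p lay under 0.05, a share not counted over all rows, for 3 of them, Ctsa, Ctsb and Ctsd. These 3 were lower on all 8 clone arrays than on both MPSVII ES arrays, which was so for 5.28% of all rows. Ctsa differed by -1.05 ± 0.24 (95% interval -1.59 to -0.51, adjusted p = 0.0817), Ctsd by -0.69 ± 0.22 (-1.18 to -0.21, adjusted p = 0.198) and Ctsb by -0.62 ± 0.23 (-1.12 to -0.12, adjusted p = 0.275).

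The call of Ctsa turned on the processing: it passed the test after quantile normalization (-0.91, adjusted p = 0.0362), after centring the arrays on their medians (-0.99, adjusted p = 0.0441), after loess normalization (-0.88, adjusted p = 0.0207), with array weights (adjusted p = 0.0277) and when dim rows were left out (adjusted p = 0.0311). The other 7 cathepsins differed by between -0.39 (Ctsz) and 0.21 (Ctsc). Among them the interval was widest for Ctsz, from -1.09 to 0.30, and narrowest for Ctsc, from -0.18 to 0.59, and differences within these intervals were not detectable with these arrays.

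Between MPSVII ES and B6 Blu ES, 0 of the 10 passed limma's test, against 0.204% of all rows. The unadjusted p lay under 0.05, a share not counted over all rows, for 1 of them. This was Ctsa, at 1.45 ± 0.38 higher in MPSVII ES (95% interval 0.61 to 2.28, adjusted p = 0.202). The other 9 differences lay between -0.44 (Ctsk) and 0.48 (Ctss), with intervals that all included 0.

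Among the 4 clones, limma's F test called 9.01% of all rows and 1 of the 10 cathepsins, Ctsc. Its arrays read 5.24 and 5.58 in clone 1, 3.81 and 4.38 in clone 2, 5.36 and 5.33 in clone 5, and 4.61 and 4.46 in clone 6. All 4 arrays of clones 1 and 5 lay above all 4 arrays of clones 2 and 6, a split seen in the data. In what share of all rows this was so was not counted. The clone means spanned 1.32 (adjusted p = 0.0109). Without clone 2 the span was 0.88 (adjusted p = 0.0801), and after loess normalization 0.95 (adjusted p = 0.0942), so that the call was lost without clone 2, which has the narrowest spread of signals, and under 1 of 3 rescalings. It was kept in 21 of 23 alternatives, quantile normalization and median centring among them.

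Ctss was the next widest, with 6.92 and 6.93 in clone 1, 5.94 and 5.33 in clone 2, 6.51 and 6.28 in clone 5, and 6.34 and 5.46 in clone 6. Clone 1 lay above every other pluripotent array, and the span of the clone means, 1.30, did not pass (adjusted p = 0.06). The spans of the other 8 ran from 0.24 (Ctsf) to 0.85 (Ctsz). Clone 2 had the lowest clone mean in Ctsa, Ctsb, Ctsc, Ctsd, Ctsl, Ctss and Ctsz, but the highest in Ctsk, at 3.92. In what share of all rows clone 2 was lowest was not counted. Its arrays had the narrowest spread of signals, with interquartile ranges of 1.88 and 1.70.

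Pairs of single lines gave 5 calls among the pluripotent lines, all with clone 2 on the lower side. Ctsc was higher in clone 1 than in clone 2 by 1.32 ± 0.22 (adjusted p = 0.00504) and lower in clone 2 than in clone 5 by -1.25 ± 0.22 (adjusted p = 0.011). Ctss was higher in clone 1 than in clone 2 by 1.30 ± 0.30 (adjusted p = 0.0189). Between clones 1 and 2, 11.4% of all rows differed, and between clones 2 and 5, 5.86% did. The first Ctsc call was lost without clone 1 replicate 2 (1.15, adjusted p = 0.0717) and after loess normalization (0.88, adjusted p = 0.0988). The other was lost without clone 5 replicate 1 (-1.24, adjusted p = 0.0945), after loess normalization (-0.95, adjusted p = 0.0874) and in a fit of the compared lines alone (adjusted p = 0.095). Ctss lost its call after quantile (0.62) and loess normalization (0.49), and without clone 1 replicate 1 (1.30), clone 1 replicate 2 (1.29) or clone 2 replicate 2 (0.99), with adjusted p of 0.0684 to 0.449.

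The remaining calls were between clone 2 and MPSVII ES, where 5.9% of all rows differed: Ctsa by -1.36 ± 0.31 (adjusted p = 0.0314) and Ctsd by -1.11 ± 0.28 (adjusted p = 0.0432). Of 22 alternatives, 9 ended the Ctsa call and 12 the Ctsd call. Ctsa lost it without either array of either line (-1.55 and -1.18 without clone 2 replicates 1 and 2, -1.46 and -1.26 without those of MPSVII ES). Ctsd lost it without the same arrays (-1.14, -1.08, -1.12 and -1.10), and without either array of clone 1 (-1.11 each time). Loess normalization (-0.76 and -0.55), array weights, all rows of the table and a fit of the compared lines alone also ended both calls, and quantile normalization ended that of Ctsd (-0.56). No other pair of pluripotent lines gave a called cathepsin.

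**Figure D5:**
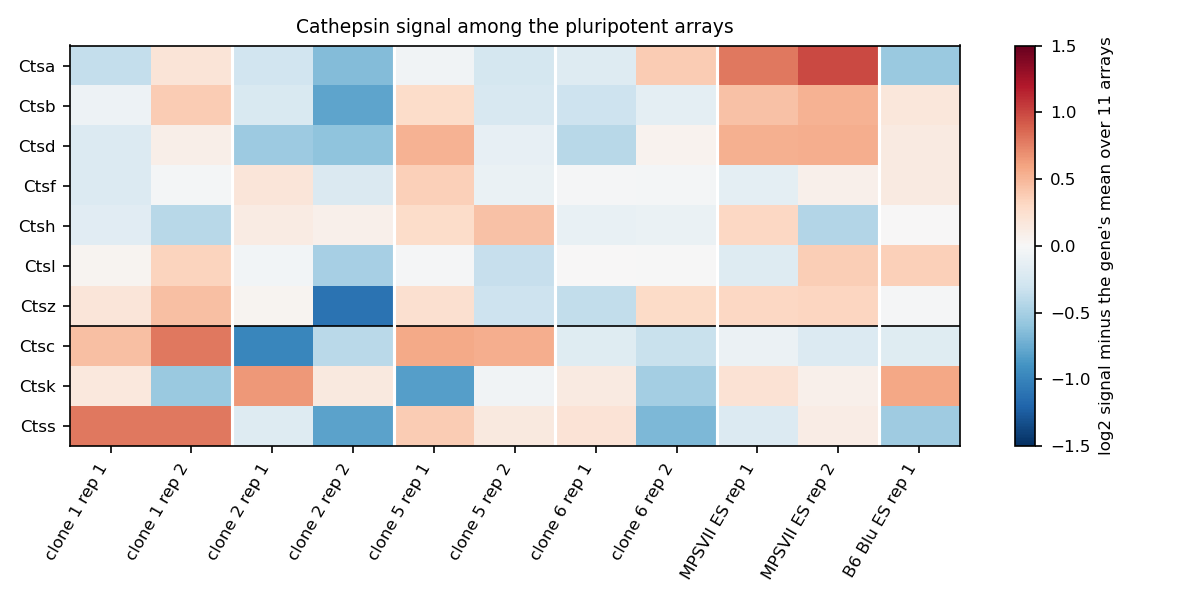
Log2 signal of each cathepsin (rows) on the 11 arrays without MEF (columns), as the difference from the gene's mean over these arrays (colour scale in log2 units). Ctsa is highest on the 2 MPSVII ES arrays, Ctss on the arrays of clone 1, and Ctsz lowest on clone 2 replicate 2.

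Across arrays the cathepsins shared their pattern with each other and with further genes, a description in which the arrays share their scaling and the gap between MEF and the rest dominates. The gene most like Ctsb over the 13 arrays was Ctsd (Pearson r = 0.995), and the reverse held too, followed for both by Cpd, a carboxypeptidase of the secretory pathway. Ctsa was most like Cd55, Rel and the lysosomal peptidase Tpp1 (r = 0.991, 0.990 and 0.990). Ctss was most like the chemokine Ccl9 and 2 macrophage receptors, Clec4d and Msr1 (r = 0.987, 0.984 and 0.984), and Ctsc like Trim30a, Alox5ap and Cd68 (r = 0.984, 0.983 and 0.983). Ctsk, in contrast, was most like Ndnf, the collagen gene Col12a1 and Hgf (r = 0.993, 0.991 and 0.990).

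Of the others, Ctsf was most like Lrp1, Rasa3 and Cd300a (r = 0.987, 0.985 and 0.985). Ctsl was most like Dnajc1, Rab31 and Itgb2 (r = 0.987, 0.984 and 0.983). For Ctsh the nearest were Limch1, Rspo2 and Cacnb2 (r = 0.978, 0.977 and 0.977). For Ctsz they were Ifnar1, Ano6 and Trim44 (r = 0.994, 0.994 and 0.990). Over the 11 arrays without MEF, Ctsb and Ctsd still had r = 0.890, Ctsb and Ctsz 0.862 and Ctsc and Ctss 0.725. Ctsc and Ctsk, both macrophage-type, had r = -0.636 there, and Ctsh and Ctsl had -0.704. None of the closest genes of the 13 arrays was among the closest 3 without MEF.

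Ctsk and Ctss are neighbours on chromosome 3 in the RefSeq gene order, between Arnt and Hormad1, a group picked after the values were seen. Both fell by about the same amount between MEF and the clones, whereas Arnt, a transcription factor partner, differed by -0.08 ± 0.18 (adjusted p = 0.796) and Hormad1, a meiotic chromosome protein, was higher in the clones by 4.31 ± 0.54 (adjusted p = 8.66e-05).

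The remaining 15 genes with a cathepsin or cathepsin-like name had a median difference of 0.07 between the clones and MEF. Of these, 2 were lower, 0 higher and 13 not called, against 27.0% of all rows called lower and 7.78% higher. Ctsr, at 0.26, was called higher after median centring (0.53, adjusted p = 0.0269). The 2 were Ctso, at 5.82 and 5.41 on MEF and 2.69 to 3.51 on the clones, a difference of -2.54 ± 0.17 (adjusted p = 7.88e-07), and Tinagl1, a matrix protein with an inactive cathepsin-like domain, at -1.40 ± 0.20 (adjusted p = 0.000254). The uncalled genes included Ctse, Ctsg and Ctsw, known for gastric and immune cells, granulocytes and cytotoxic lymphocytes, and those of the rodent placental cluster (Ctsj, Ctsm, Ctsq, Ctsr, Cts3, Cts6, Cts7 and Cts8), whose differences lay between -0.39 (Ctsm) and 0.28 (Ctsg). The signals of all these uncalled genes lay below the median of every array, in MEF as in the other lines. Whether they exceed background in any line was not tested.

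Genes that act on the cathepsins moved with them in part. Of the 13 genes for activation, lysosomal membrane and partner enzymes, 11 fell from MEF to the clones, against 27.0% of all rows, and 2, Cd74 and Neu1, were not called. The calls of Ifi30 and Atp6v1h were lost after quantile normalization, that of Ifi30 also after median and loess normalization, and Cd74 was called higher after median centring (0.35, adjusted p = 0.0459). The largest differences were those of Atp6v0d2, a proton pump subunit (-4.28 ± 0.20, adjusted p = 9.23e-08), Psap, the saposin precursor (-3.89 ± 0.24, adjusted p = 4.87e-07), Lgmn, legumain, which cleaves several cathepsins during maturation (-3.69 ± 0.24, adjusted p = 6.5e-07), and Atp6ap1, a pump accessory protein (-3.16 ± 0.25, adjusted p = 2.61e-06). The median of the list was -2.66. On the MEF arrays Lgmn stood at 8.75 and 8.08, and between 4.06 and 5.29 on all others.

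Of 10 measured sorting genes, 5 were lower, against 27.0% of all rows, and 5 not called, with a median of -0.65, which quantile normalization moved to -0.07. Igf2r, the large mannose-6-phosphate receptor, was lower by -3.19 ± 0.24 (adjusted p = 1.79e-06), followed by Lrp1, Gnptab and Scarb2 at -2.41, -1.85 and -1.70. Those not called, Vps35, Nagpa, Gga1, Gga2 and Gga3, lay between -0.42 and 0.07. After quantile normalization Gnptg lost its call (-0.25) and Gga2 was called higher (0.57), as it was after loess normalization (0.56), which also called Vps35 lower (-0.40). The retromer subunit Vps35 and the GGA adaptors serve transport in general, whereas Gnptab makes the mannose-6-phosphate tag.

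Of 14 inhibitors listed, 5 had a row. Cystatin C (Cst3) was lower in the clones by -2.78 ± 0.32 (adjusted p = 4.88e-05), cystatin B (Cstb) by -2.02 ± 0.27 (adjusted p = 0.000161) and Serpinb6a, which inhibits serine proteases, by -2.99 ± 0.21 (adjusted p = 1.32e-06). Cst6 differed by 0.30 ± 0.26 (adjusted p = 0.444). Both cystatins kept a clear signal in the pluripotent lines, with Cst3 at 7.57 to 8.74 and Cstb at 7.79 to 9.36 on the clone arrays. Spink1, a trypsin inhibitor listed under its older name Spink3, went the opposite way, with 3.15 and 2.29 on MEF, 6.55 and 6.74 on MPSVII ES, 7.09 on B6 Blu ES and 8.46 to 10.95 on the clones. It was 7.27 ± 0.22 higher in the clones than in MEF (adjusted p = 9.55e-09). Compared with MPSVII ES it was 3.34 higher in the clones (adjusted p = 7.45e-05), the only inhibitor called there, against 1.04% of all rows.

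Of 9 measured regulators, 6 fell from MEF to the clones, against 27.0% of all rows, led by Tfec, a macrophage relative of TFEB (-3.78 ± 0.26, adjusted p = 1.02e-06), Stat3 (-2.19 ± 0.23, adjusted p = 2.25e-05), Spi1 (-1.87 ± 0.29, adjusted p = 0.000452) and Stat6 (-0.91 ± 0.16, adjusted p = 0.00104). Spi1 encodes PU.1, and its signal was 5.92 and 5.57 on MEF and 3.33 to 4.52 on the clones. Tfeb, Tfe3 and Mtor were not called, at 0.06 ± 0.20, -0.04 ± 0.15 and -0.20 ± 0.20, but Tfe3 was called higher after quantile normalization (0.40, adjusted p = 0.0186). The calls of Mitf (-0.89) and Irf8 (-0.63) were each lost under 2 of the 3 normalizations. Transcript levels of Tfeb and Tfe3 say nothing of their activity, which is set by transport into the nucleus.

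Of 11 substrates, 7 were lower in the clones, against 27.0% of all rows, led by the proteoglycans Dcn (-5.13 ± 0.25, adjusted p = 1.06e-07) and Bgn (-4.83 ± 0.25, adjusted p = 1.57e-07), followed by App and Sparc at -3.97 and -3.74. The laminin gene Lama1 was higher, by 0.59 ± 0.17 (adjusted p = 0.0205), where 7.78% of all rows were, and Bid, Eln and Cd74 were not called. Between clones and MPSVII ES, limma called 0 genes of the sorting, activation, regulator and other cathepsin lists, against 1.04% of all rows. Of these lists, 1, 4, 2 and 0 genes had an unadjusted p under 0.05. The share of all rows under that unadjusted p was not counted. Of the substrates Dcn alone was called, at -1.71 (adjusted p = 0.0152).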

How the data were processed

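RNA of 13 samples was amplified with the NuGEN WT-Ovation Pico system, per the labels' protocols. The deposited values are log2 signals that the authors made with RMA in Affymetrix Expression Console, per the submitters' processing notes. The versions are not given in the sources used here. RMA scales the arrays to each other before it summarises probes, so whole-array differences may be partly removed. Over the rows tested the deposited arrays still differed, with medians of 3.97 to 4.45 and interquartile ranges of 1.70 to 2.83. Of 23238 rows, the 6577 numbered before the first annotated row were left out on the assumption that they are array controls, which no source used here states. Genes were named from the array annotation, of which 14939 tested rows carry 1 symbol, 989 several and 733 none.

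Each line got 1 mean in a fit of the 13 arrays with limma 3.58.1 in R 4.3.3 (lmFit, then eBayes, with 6 residual and 4.53 prior degrees of freedom). P-values were adjusted by the Benjamini-Hochberg method over all 16661 rows of a comparison and called under 0.05. The code was tested on simulated data. The cathepsins, their classes and all gene lists were chosen with earlier results of these data known. Of each further list, up to 4 called genes with the largest difference between clones and MEF are named, with all inhibitors. For each cathepsin the 3 most similar rows are named, but fewer for Ctsb and Ctsd. Other genes named were chosen after their values were seen. Promoter windows are from RefSeq on GRCm38.p6. Alternatives covered normalization, filters, the variance prior, array weights, samples in the fit, a replicate block and single arrays left out. The normalizations were also applied to the further lists, a choice made after seeing the data.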

Additional observations from a re-analysis of the deposited data

Results flagged for a closer look

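Cathepsins that differed between pluripotent lines are listed here because the test of the difference itself passed. Tests of pairs were planned only for neighbours in a gene's order of lines, which the pairs below are not. Their p-values were adjusted within each of the 21 pairs, not across pairs. Among the clones, the means of Ctsc spanned 1.32 log2 units by limma's F test, and the difference of 1.32 between clone 1 and clone 2 made up that span. Ctsc also differed by -1.25 between clone 2 and clone 5. Ctss differed by 1.30 between clone 1 and clone 2, but did not pass limma's F test among the clones (adjusted p = 0.06). Against MPSVII ES, clone 2 differed by -1.36 in Ctsa and by -1.11 in Ctsd, calls that 9 and 12 of 22 alternatives ended. Of all rows, 11.4% differed between clones 1 and 2, 5.86% between clones 2 and 5, and 5.9% between clone 2 and MPSVII ES. All of these differences involve clone 2, whose arrays had interquartile ranges of 1.88 and 1.70, against 1.96 to 2.39 on the other clone arrays. The part of this narrower spread in the differences was not tested beyond the normalizations given with them. The pluripotent cell markers averaged 6.87 and 6.67 on clone 2, against 7.36 to 7.79 on the other clone arrays. The fibroblast markers averaged 5.46 and 4.95, against 4.54 to 5.06. The macrophage markers averaged 3.78 and 3.85, within the 3.58 to 3.92 of the other clone arrays. The part of these marker levels in the differences was not tested. No clone stood apart from the other 3 in any of the 10 genes by Dixon's criterion.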

How the results depend on the processing

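Under every alternative run, the 10 cathepsins kept their direction against MEF in the clones, MPSVII ES and B6 Blu ES. They stayed called, 9 of the 9 that remained when dim rows, Ctsh among them, were left out, with the exception of Ctsf in B6 Blu ES, which was lost with all rows of the table (adjusted p = 0.0502) and without MEF replicate 1. Leaving out single arrays gave 10 to 10 called cathepsins for the clones and for MPSVII ES against MEF, 9 to 10 for B6 Blu ES against MEF, 0 to 0 for clones minus MPSVII ES and for MPSVII ES minus B6 Blu ES, and 1 to 2 among the clones. For clones minus MPSVII ES, 1 cathepsin, Ctsa, was called after quantile, median or loess normalization, with array weights and without dim rows. Among the clones, 2 were called after median centring, without dim rows and without either array of clone 6 (Ctsc and Ctss), and 0 after loess normalization or without clone 2. Signs changed only among uncalled differences, in 6 values for clones minus MPSVII ES and 7 for MPSVII ES minus B6 Blu ES.

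Counts over all rows moved more. For clones minus MPSVII ES, 173 rows were called, against 455 after quantile, 309 after median and 412 after loess normalization, 301 without dim rows, 446 with array weights, 22 with all rows, 2 with line means as samples and 6 to 183 without single arrays. For MPSVII ES minus B6 Blu ES the count was 34, against 0 to 186. Of these calls 69.4% and 35.3% were lower, against 57.8% and 41.4% after quantile, 60.8% and 37.9% after median and 54.1% and 46.4% after loess normalization. Among the clones it was 1501, against 134 without clone 2, 487 to 1352 without single arrays, 784 to 1070 with loess, array weights, all rows, the replicate block or the clones alone, 1933 after median centring and 1982 without dim rows. Against MEF, the 5803, 4452 and 3549 rows called for clones, MPSVII ES and B6 Blu ES ran from 3060, 1741 and 1802 with line means as samples to 7085 after median centring for the clones and 5179 and 4007 after loess normalization for the ES lines. Relative to MEF the mean array medians lay at -0.27 for the clones, -0.21 for MPSVII ES and -0.21 for B6 Blu ES, and median centring moves every difference from MEF up by that much.

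The replicate numbers of the titles did not pair the arrays: over 15 pairs of lines, deviations correlated with r between -0.241 and 0.24, with 4 pairs over 0.1. With the replicate block, 10, 10 and 10 cathepsins were called against MEF, 0 for clones minus MPSVII ES, 0 for MPSVII ES minus B6 Blu ES and 1 among the clones. The block ended the calls of Ctsa and Ctsd between clone 2 and MPSVII ES (-1.36 and -1.11, adjusted p = 0.0504 and 0.0625) and gave 114 in place of 173 rows for clones minus MPSVII ES. The planned use of a gene's next row could not be run, as each cathepsin has 1 row. With line means as samples the differences among the clones have no test. Detection calls were not used here, so whether signals below the array median, as those of Ctsh and Ctsk outside MEF, exceed background was not tested.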

Other observations

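Replicate 1 of MEF lay above replicate 2 in all 10 cathepsins, with a median difference of 0.56, and had the widest spread of signals of the 13 arrays. In clone 2, replicate 1 was the higher in 9 of 10 (median 0.43), and in clone 1 in 2 of 10 (median -0.28). The share of all rows with these directions was not counted. The median of all tested rows went the same way. It was 4.45 and 4.34 on MEF replicates 1 and 2, 4.23 and 3.97 on those of clone 2, and 4.12 and 4.18 on those of clone 1.

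Of the 18 macrophage markers, 2 differed among the clones by limma's F test, near the 9.01% of all rows that did. They were Cd68 and Laptm5, both genes of lysosomal membrane proteins. Cd68 ran from 5.57 to 7.66 on the clone arrays, with clone means that spanned 1.58 (adjusted p = 0.0218). Those of Laptm5 spanned 1.21 (adjusted p = 0.0103). Laptm5 stood at 6.79 and 6.73 on MPSVII ES, at 6.65 and 6.49 on clone 5, at 5.17 to 5.74 on the other clones and at 4.92 on B6 Blu ES. It was called in the clones minus MPSVII ES (-0.996, adjusted p = 0.0156) and in MPSVII ES minus B6 Blu ES (1.84, adjusted p = 0.014), where Cd68 differed by 0.26 (adjusted p = 0.761) and 0.37 (adjusted p = 0.828). Ctsc, Ctsk and Ctss were called in neither comparison.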
